A study of Mus musculus with 6 samples.

Results

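The genes of glycolysis and of the transcriptional response to low oxygen were followed in RNA sequencing of mouse calvarial osteoblasts, the bone-forming cells of the skull vault. The set held 37 genes, chosen by symbol as the enzymes, transporters, regulators and hypoxia targets of these pathways, out of 29018 genes in the deposited table. All 37 were in the table, and all 37 passed the filter on low counts. Cells came from neonatal mice and underwent osteogenic differentiation in both groups: 3 libraries were labelled NDR1 KO, for the kinase encoded by Stk38, and 3 WT. The labels give neither the design of the knockout allele nor the strain, sex, day of differentiation or oxygen level. Whether the replicates came from different animals or cultures is not given. The p-values weigh the difference between groups only against the spread of libraries within groups, and that spread may be technical.

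Glycolysis splits glucose into pyruvate in the cytosol. Lactate dehydrogenase then turns pyruvate into lactate, or pyruvate dehydrogenase uses it inside the mitochondrion, a step that the pyruvate dehydrogenase kinases block. When oxygen falls, prolyl hydroxylases stop marking the HIF alpha subunits for destruction, and HIF binds with its partner ARNT to promoters and enhancers of glycolytic and other hypoxia genes. Osteoblasts are known for high aerobic glycolysis, and HIF protein is set largely by its stability, which mRNA levels do not show.

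Libraries held 61461870 to 76159034 counts. Stk38 stood at 50.3, 47.9 and 52.5 CPM in the 3 KO libraries, where CPM is the count scaled to the size of its library after TMM factors. In WT it stood at 73.1, 77.4 and 79.4 CPM, so that 65.6% of the WT level was still read in KO (log2 -0.61 ± 0.05 SE, adjusted p = 8.10e-06, edgeR with Benjamini-Hochberg adjustment). Markers of osteoblasts were high in every library, with summed levels of 44257 to 46633 CPM in KO and 60354 to 62098 CPM in WT over 11 markers, of which 6 fell and 1 rose. Of 17 macrophage markers, 15 rose and none fell (0 at an unadjusted p under 0.05, and 0 in DESeq2 and limma), and their summed level was 1073 to 1185 CPM in KO against 423 to 556 CPM in WT, with Aif1 at 0 in 1 WT library. Of 7 adipocyte markers 6 fell, from a sum of 271 to 282 CPM in WT to 128 to 137 CPM in KO. Of 6 tested osteoclast markers 2 fell, with sums of 236 to 240.3 CPM in KO and 455 to 460.2 CPM in WT. Their median log2 difference was -0.19, and 3 of the 6 lay above 0, none of them called. Of 5 endothelial markers 3 fell (6.85 to 8.06 against 13.5 to 13.7 CPM), of 6 skeletal muscle markers 2 fell (6.39 to 8.05 against 9.43 to 10.8 CPM), and red cell markers summed to at most 0.104 CPM. In these bulk samples fewer cells of a type and less RNA per cell cannot be told apart, and the part of these markers in the results that follow was not tested.

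In the glycolytic chain 8 of 16 genes rose modestly in KO and 8 were not called. Of 13 oxygen-sensing and hypoxia response genes 2 rose, 2 fell and 9 were not called, and the difference between these groups was not tested. Of the 37 genes 16 (43.2%) were called, against 22.9% of all 18221 genes tested, at an adjusted p under 0.05 in edgeR's quasi-likelihood test. Of these, 13 rose in KO (35.1% of the 37, against 11.2% of all genes tested) and 3 fell (8.11%, against 11.7%). The other 21 were not called. The 37 genes were chosen with earlier results of these data known, and their shares were not tested against those of all genes. The median log2 difference of KO over WT was 0.05 for the 37 genes and 0.00 for all genes tested. In 17 of the 37 genes the 3 KO values lay above the 3 WT values, and in 8 they lay below, where 19.2% and 19.1% of all genes tested did so. The chain itself, the glucose transporter Slc2a1 and the enzymes down to pyruvate kinase, had a median of 0.11, with 14 of 16 values above 0 and Pfkm and Aldoc below, and none was called lower in edgeR. None of the 16 was lower at an unadjusted p under 0.05 either, or called lower by DESeq2 or limma. The 13 oxygen-sensing and hypoxia response genes had a median of -0.07.

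The number of genes called higher changed by over 1.5 times when any 1 library other than KO 2 was left out. With all libraries it was 13 of 37 (35.1%), against 11.2% of all genes tested. It was 6 of 37 without KO 1, 9 of 37 without KO 2 and 7 of 37 without KO 3. Of all genes tested 8.47%, 9.09% and 8.98% were called higher in these fits. It was 5 of 37 without WT 1, 8 of 37 without WT 2 and 8 of 37 without WT 3, against 8.82%, 9.01% and 9.21% of all genes tested. The share of the 37 genes was thus smaller in each of these fits than with all libraries. The 16 called genes kept their sign under all 15 alternative settings, and 6 of them (Pgam1, Pkm, Ldha, Car12, Pdk1 and Epas1) were called under every alternative that tested them. On library totals without scaling factors, 63.0% of all called genes were higher in KO, against 49.0% with them.

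**Figure D1:**
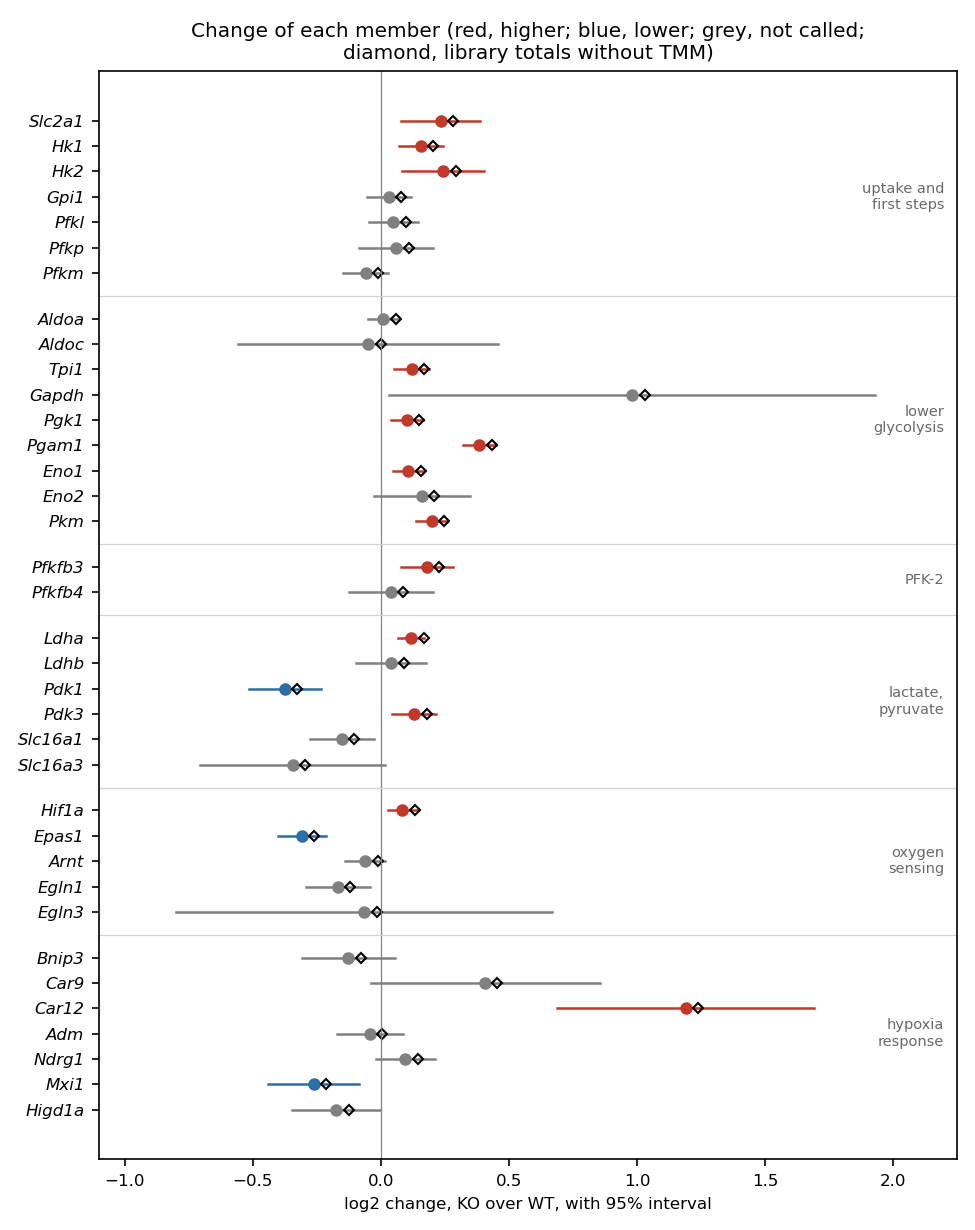
Log2 difference of KO over WT for 36 genes ordered by role (Ankrd37, near 0 CPM, is left out), with lines for the 95% interval of each gene, not adjusted for the number of genes, and diamonds for the fit without TMM factors. Car12 at 1.19 and Gapdh at 0.98, which was not called and has a wide interval, lie farthest to the right, and the called genes Pdk1, Epas1 and Mxi1 lie to the left of 0.

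Promoters are shown for the called genes of largest change that have an entry in the promoter table, which Epas1 and Ndrg1 do not, because HIF is known to bind the core letters ACGTG or GCGTG of the hypoxia response element and several of these genes are textbook HIF targets. Each sequence holds the 250 bases before the most upstream start of the gene, 5′ to 3′ on the strand of the gene, from RefSeq on build GRCm38.p6. Capitals mark each match to ACGTG or GCGTG on either strand, the reverse strand reading CACGT or CACGC, and the palindrome CACGTG was counted once. The genes are Pgam1 at chr19:41911621-41911870 (+), Slc2a1 at chr4:119108495-119108744 (+), Hk2 at chr6:82774455-82774704 (-), Pdk1 at chr2:71872974-71873223 (+), Car12 at chr9:66713436-66713685 (+) and Mxi1 at chr19:53310256-53310505 (+).
Pgam1: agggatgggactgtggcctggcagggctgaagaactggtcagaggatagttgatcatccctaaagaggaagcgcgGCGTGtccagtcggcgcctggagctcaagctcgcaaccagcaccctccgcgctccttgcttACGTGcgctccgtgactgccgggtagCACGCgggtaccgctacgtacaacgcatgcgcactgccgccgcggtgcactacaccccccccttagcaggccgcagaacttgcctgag
Slc2a1: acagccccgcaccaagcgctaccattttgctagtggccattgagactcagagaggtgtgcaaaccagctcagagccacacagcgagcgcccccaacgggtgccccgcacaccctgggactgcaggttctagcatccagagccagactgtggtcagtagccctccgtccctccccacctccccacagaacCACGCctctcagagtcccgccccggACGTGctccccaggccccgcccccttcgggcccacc
Hk2: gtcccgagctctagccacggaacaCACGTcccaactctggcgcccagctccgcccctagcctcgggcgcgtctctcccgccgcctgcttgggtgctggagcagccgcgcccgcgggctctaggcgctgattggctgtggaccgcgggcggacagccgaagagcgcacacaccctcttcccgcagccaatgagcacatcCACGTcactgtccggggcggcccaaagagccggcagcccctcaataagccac
Pdk1: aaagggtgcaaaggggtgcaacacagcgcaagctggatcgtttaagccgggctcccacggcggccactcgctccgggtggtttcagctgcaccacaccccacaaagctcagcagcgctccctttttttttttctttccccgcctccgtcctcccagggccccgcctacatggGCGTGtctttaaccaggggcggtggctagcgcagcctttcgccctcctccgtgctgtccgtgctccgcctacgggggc
Car12: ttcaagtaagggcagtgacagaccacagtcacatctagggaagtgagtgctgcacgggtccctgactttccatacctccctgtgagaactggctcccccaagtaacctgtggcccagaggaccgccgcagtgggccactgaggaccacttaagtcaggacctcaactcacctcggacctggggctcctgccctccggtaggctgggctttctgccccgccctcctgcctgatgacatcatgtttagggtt
Mxi1: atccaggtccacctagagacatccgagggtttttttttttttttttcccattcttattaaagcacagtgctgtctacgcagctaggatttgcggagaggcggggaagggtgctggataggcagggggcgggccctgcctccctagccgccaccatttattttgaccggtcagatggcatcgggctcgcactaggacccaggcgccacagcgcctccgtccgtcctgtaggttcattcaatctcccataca
The Pgam1 window holds 3 matches, whose first bases lie 175, 114 and 88 bases before the start. The Slc2a1 window holds 2, at 61 and 36 bases, and the Hk2 window holds 2, at 226 and 52 bases. Pdk1, which fell, has 1 at 78 bases, and the letters are in neither the Car12 nor the Mxi1 window. The promoter table holds 3 windows for Mxi1 and 2 for Pdk1, and only the most upstream was used.

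Across the set, 35 of the 37 genes matched the promoter table, and 27 of them (77.1%) held the core in this window. The share was 54.6% over the 12054 tested genes in that table and 38.6% over all 27025. Within the set it stood at 9 of the 13 genes called higher, 1 of 2 called lower and 17 of 20 not called. The palindrome CACGTG was in 5 of the 35 (14.3%), against 8.11% of the tested genes. Median GC content was 59.2% in the set and 59.6% in the tested genes. A match describes the letters only, and binding was not measured here.

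Transcripts for glucose entry and its first phosphorylation were slightly higher in KO. Slc2a1, which encodes the glucose transporter GLUT1, stood at 29.2, 29.0 and 28.3 CPM in KO and 25.3, 22.0 and 26.2 CPM in WT. Hk1, the hexokinase held at the mitochondrial outer membrane in many tissues, stood at 120, 122 and 128 CPM in KO and 106, 113 and 113 CPM in WT. Hk2, the hexokinase induced by growth factors and hypoxia, stood at 14.5, 14.9 and 14.5 CPM in KO and 12.1, 11.9 and 13.1 CPM in WT. In all 3 genes every KO library was above every WT library. The log2 differences were 0.23 ± 0.07 for Slc2a1 (adjusted p = 0.0370), 0.16 ± 0.04 for Hk1 (adjusted p = 0.0150) and 0.24 ± 0.07 for Hk2 (adjusted p = 0.0342). The calls of Slc2a1 and Hk2 were lost when any 1 library other than WT 3 was left out (adjusted p from 0.0618 to 0.115 and from 0.0773 to 0.103), and that of Hk1 without KO 3 or WT 1 (0.0584 and 0.0624). The calls of Slc2a1 without a count filter (adjusted p = 0.0606) and of Hk2 in DESeq2 (adjusted p = 0.0731) were also lost.

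The next steps, down to fructose 1,6-bisphosphate, did not pass the test. Gpi1, the isomerase that makes fructose 6-phosphate, differed by 0.03 ± 0.04 on the log2 scale (adjusted p = 0.633), at mean levels of 185 CPM in KO and 182 CPM in WT. The phosphofructokinases Pfkl, Pfkp and Pfkm, which catalyse the committed step, differed by 0.05, 0.06 and -0.06, with overlapping libraries in each. Their 95% intervals together spanned -0.15 to 0.21. Pfkfb3, which makes the phosphofructokinase activator fructose 2,6-bisphosphate, was the regulator that passed. It stood at 68.3, 69.5 and 75.7 CPM in KO and 62.3, 62.0 and 64.2 CPM in WT, a log2 difference of 0.18 ± 0.05 (adjusted p = 0.0167). All KO values of Pfkfb3 were above all WT values, and KO 3 was the highest. The call was lost without KO 3, WT 1 or WT 2 (log2 0.13, 0.17 and 0.17, adjusted p = 0.0553, 0.0599 and 0.0588). The related Pfkfb4 overlapped between groups (0.04 ± 0.07, adjusted p = 0.775).

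The lower part of glycolysis held the change of lowest adjusted p among the 37 genes, a rise of Pgam1. Pgam1, the phosphoglycerate mutase that converts 3-phosphoglycerate to 2-phosphoglycerate, stood at 294, 279 and 288 CPM in KO and at 223, 222 and 215 CPM in WT. The lowest KO library was well above the highest WT library, and the difference was 1.31-fold (log2 0.38 ± 0.03, adjusted p = 6.16e-06). Pgam1 (ENSMUSG00000011752) lies on chromosome 19 at 41900362 to 41907099 in the deposited coordinates, whose mouse build could not be settled. Its pseudogenes took 5.03% to 6.28% of the summed counts of gene and copies, and Pgam1-ps2 was itself not called (adjusted p = 0.13). Pkm, the pyruvate kinase of the final step, stood at 953, 901 and 954 CPM in KO and 827, 807 and 814 CPM in WT. Every KO value was higher, by 1.15-fold on average (log2 0.20 ± 0.03, adjusted p = 3.40e-04). On the deposited FPKM scale, which divides by gene length, Pkm was the most abundant transcript of the chain at 179 ± 5.24 FPKM in KO and 151 ± 1.64 in WT (SD, n = 3), and Pgam1 stood at 139 ± 3.74 FPKM against 103 ± 2.10.

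Tpi1, Pgk1 and Eno1 rose by less. Tpi1, the triose phosphate isomerase, stood at 232, 237 and 228 CPM in KO and 211, 221 and 209 CPM in WT. Pgk1, the kinase of the first ATP-forming step, stood at 196, 202 and 192 CPM in KO and 182, 184 and 183 CPM in WT. Eno1, the main enolase, stood at 527, 517 and 536 CPM in KO and 488, 502 and 477 CPM in WT. The groups did not overlap in any of the 3, and the fitted levels were 8.68%, 7.34% and 7.68% higher in KO. Log2 differences were 0.12 ± 0.03 for Tpi1 (adjusted p = 0.0169), 0.10 ± 0.03 for Pgk1 (adjusted p = 0.0264) and 0.11 ± 0.03 for Eno1 (adjusted p = 0.0153). The call was lost for Tpi1 without KO 1, KO 2, WT 1 or WT 3 (adjusted p from 0.0610 to 0.0718), for Pgk1 without any 1 library other than KO 3 (0.0599 to 0.0845) and for Eno1 without KO 1, KO 3 or WT 3 (0.0608 to 0.0653).

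Aldolase and the minor enolase did not pass. Aldoa, which cleaves fructose 1,6-bisphosphate, stood at a mean of 424 CPM in KO and 421 CPM in WT and differed by 0.01 ± 0.03 (95% interval -0.05 to 0.07, adjusted p = 0.851). Aldoc, its brain-enriched relative, was read at 3.17 CPM in KO and 3.27 CPM in WT and differed by -0.05 ± 0.23. Eno2, the enolase known from neurons, lay above WT in all 3 KO libraries but did not pass (0.16 ± 0.08, adjusted p = 0.225).

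**Figure D2:**
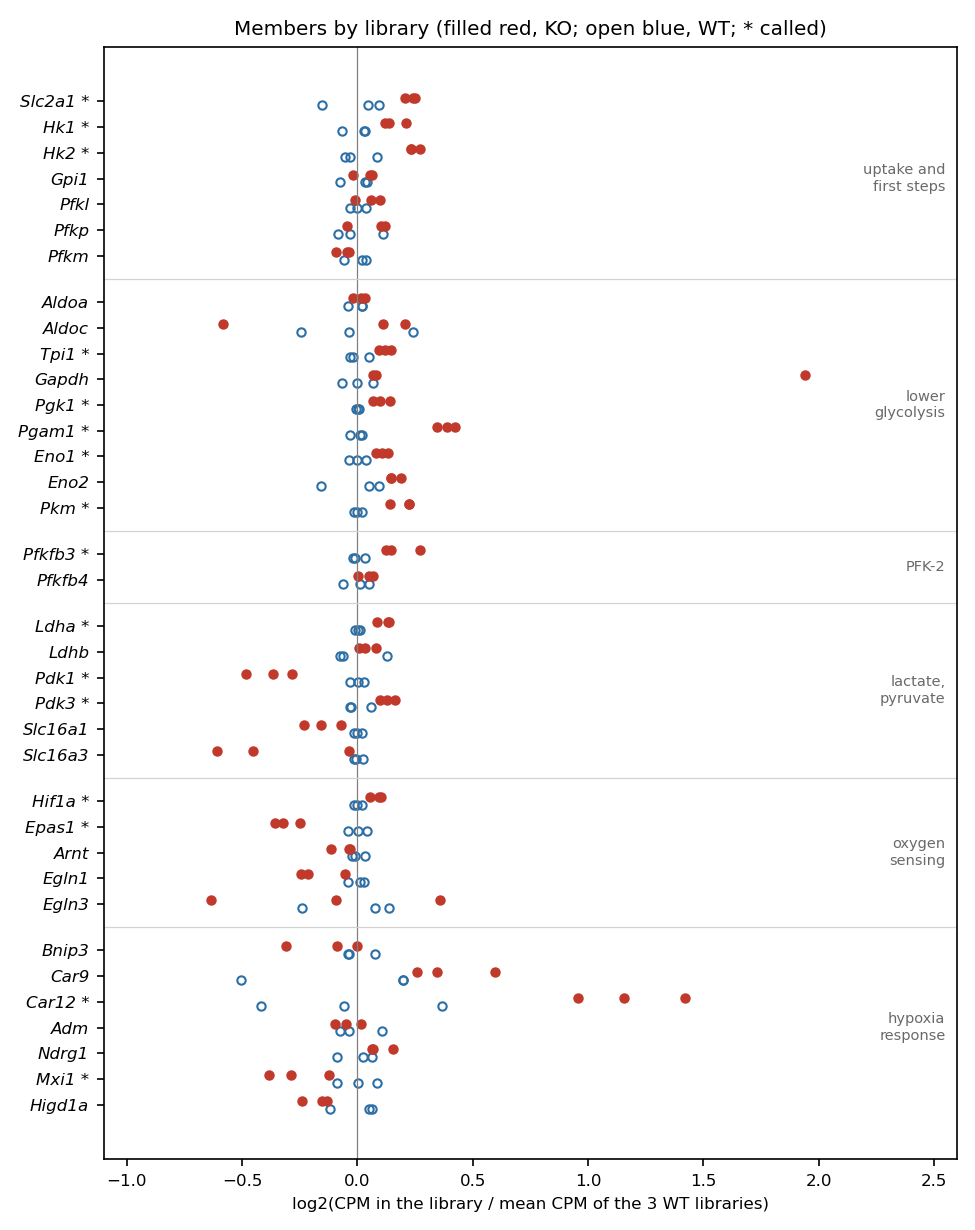
Log2 ratio of the CPM in each library to the mean CPM of the 3 WT libraries, for 36 genes grouped by role (Ankrd37, near 0 CPM, is left out), with filled red points for KO, open blue points for WT and stars at called genes. Gapdh in KO 2, at 45.4 CPM, stands far from its other 5 libraries, and the 3 KO points of Pgam1, Pdk1, Epas1 and Car12 lie clear of the WT points.

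Gapdh, the glyceraldehyde phosphate dehydrogenase often used as a reference gene, was uneven in 1 library. It stood at 12.4, 45.4 and 12.5 CPM in KO and 12.4, 11.3 and 11.8 CPM in WT. KO 2 was 3.64 times the highest of the other 5 libraries. Among 9711 genes of at least 10 CPM in KO 2 this was the largest such ratio, and the next gene stood at 1.96. The log2 difference was 0.98 ± 0.43 (95% interval 0.03 to 1.93) and was not called (adjusted p = 0.137). Without KO 2 it was 0.07 (adjusted p = 0.630). Without KO 3 it was 1.28 and called (adjusted p = 0.0453).

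The counts of Gapdh stood beside those of 5 copies named after it, and its level is uncertain. Gapdh and these copies together stood at 46.3 to 51.2 CPM outside KO 2, where Pgk1 stood at 182 to 196 CPM. Why the listed level was low was not tested. Outside KO 2 the gene was listed at 2.53 to 2.88 FPKM, far below the 81.2 to 86.6 FPKM of Pgk1 in KO, the enzyme of the next step. Of the summed counts of Gapdh and 5 copies, the copies took 74.7%, 45.1% and 75.6% in KO and 73.4%, 75.6% and 75.1% in WT. The retrocopy Gapdh-ps15 stood at 14.9, 16.2 and 15.8 CPM in KO and 13.8, 14.4 and 14.8 CPM in WT, and none of the 4 tested copies was called. In KO 2 the copies were near their level in other libraries, and the excess was in counts given to Gapdh itself. Iffo1, on the opposite strand, overlaps the deposited interval of Gapdh, as Pitrm1 does that of Pfkp and Senp1 that of Pfkm, and whether counting used strand is not given in the sources used here. For the called genes an overlapping gene had at most 5.96% of the counts of the gene itself, which was Spsb2 beside Tpi1.

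**Figure D3:**
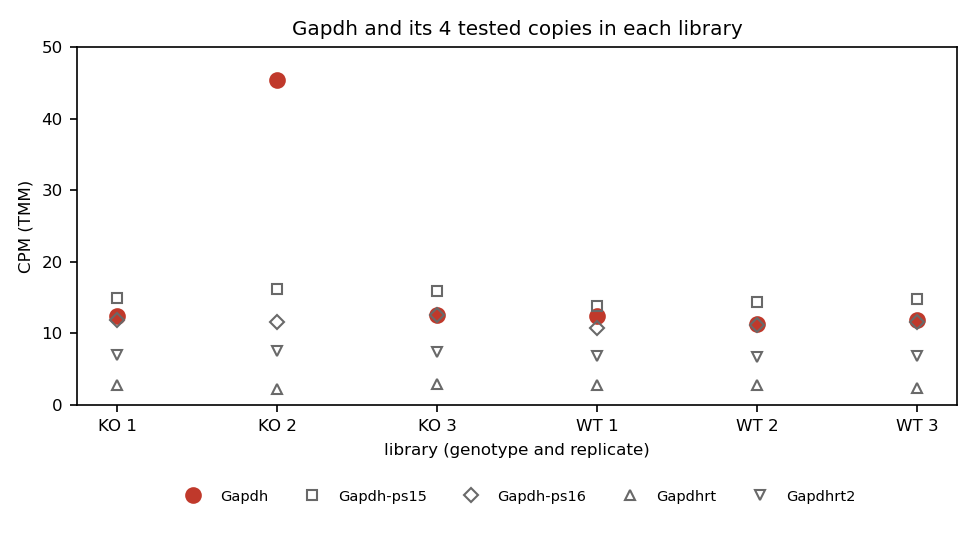
CPM of Gapdh (filled) and its 4 tested copies (open) in each of the 6 libraries. Gapdh stands at 45.4 CPM in KO 2 and at 11.3 to 12.5 CPM in the other 5 libraries, and Gapdh-ps15 at 13.8 to 16.2 CPM.

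Summed over its 16 genes, of which 8 were not called, the chain was higher in every KO library. Abundant genes weigh most in such a sum, among them Pkm (179 FPKM in KO, 151 in WT) and Pgam1 (139 and 103). Aldoa, also abundant, stood at 139 and 134 FPKM. The sums were 816, 809 and 799 FPKM in KO and 705, 710 and 692 FPKM in WT. Without Gapdh they were 813, 799 and 796 FPKM in KO and 703, 707 and 690 FPKM in WT. As a share of all counts the chain took 0.325%, 0.321% and 0.321% in KO and 0.285%, 0.284% and 0.278% in WT. These sums carry no scaling factors, and on library totals the median log2 difference of all genes was 0.05.

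At the fate of pyruvate, mRNA of the enzyme of lactate formation rose, while mRNAs of the kinases that guard pyruvate dehydrogenase moved apart. Ldha, the subunit of lactate dehydrogenase that favours lactate, stood at 565, 562 and 545 CPM in KO and 509, 517 and 514 CPM in WT. All KO libraries were higher, by 0.12 ± 0.02 on the log2 scale (adjusted p = 0.00427). Ldhb, the heart-type subunit, overlapped between groups (0.04 ± 0.06, adjusted p = 0.709). Pdk1, the pyruvate dehydrogenase kinase known as a HIF-1 target, stood at 25.7, 24.3 and 22.3 CPM in KO and 30.6, 31.3 and 31.8 CPM in WT. Every KO library was below every WT library, and the level fell by 22.9% (log2 -0.38 ± 0.06, adjusted p = 0.00157). Pdk3, the kinase isoform of highest FPKM here, stood at 79.7, 76.2 and 77.9 CPM in KO and 69.7, 74.1 and 69.97 CPM in WT. It rose by 0.13 ± 0.04 (adjusted p = 0.0367), and that call was lost without KO 1, KO 3, WT 1 or WT 3 (adjusted p from 0.0840 to 0.130).

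Neither lactate transporter passed the test. Slc16a1, encoding MCT1, stood at 33.1, 31.1 and 29.6 CPM in KO and 34.4, 34.7 and 35.2 CPM in WT, with all KO libraries lower (-0.15 ± 0.06, adjusted p = 0.0805). Slc16a3, encoding the lactate exporter MCT4, stood at 5.16, 3.86 and 3.46 CPM in KO and 5.26, 5.22 and 5.36 CPM in WT (-0.34 ± 0.16, adjusted p = 0.171). KO 1 was close to WT for this gene, and without that library it was called, at -0.53 (adjusted p = 0.0354).

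The HIF alpha subunits moved in opposite directions. Hif1a, encoding HIF-1 alpha, stood at 284, 275 and 283 CPM in KO and 269, 264 and 262 CPM in WT, a rise of 0.08 ± 0.03 on the log2 scale (adjusted p = 0.0392). Epas1, encoding HIF-2 alpha, stood at 66.7, 63.3 and 61.8 CPM in KO and 76.9, 81.3 and 79.2 CPM in WT, and it fell by 19.3% (log2 -0.31 ± 0.04, adjusted p = 3.76e-04). Neither gene had overlapping groups. The ratio of Hif1a to Epas1 on the FPKM scale was 4.05, 4.13 and 4.34 in KO and 3.32, 3.08 and 3.14 in WT. The call of Hif1a was lost without any 1 library other than KO 2 (adjusted p from 0.0535 to 0.150), and that of Epas1 was kept under every alternative. Hif1a (ENSMUSG00000021109) lies on chromosome 12 at 73948149 to 73994304 and Epas1 (ENSMUSG00000024140) on chromosome 17 at 87061128 to 87140838 in the deposited coordinates.

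Arnt, the shared partner of both alpha subunits, was not called. It stood at 97.4, 97.1 and 91.9 CPM in KO and 99.0, 102 and 98.0 CPM in WT, with every KO value below every WT value (-0.06 ± 0.04, adjusted p = 0.271). Egln1, the main prolyl hydroxylase that marks HIF alpha for destruction, stood at 45.9 ± 3.32 CPM in KO and 51.5 ± 1.23 in WT (SD, n = 3). Its difference of -0.17 ± 0.06 missed the threshold (adjusted p = 0.0588). It passed without KO 3 (-0.23, adjusted p = 0.00963) and with robust dispersion (adjusted p = 0.0375). Egln3, the hydroxylase most strongly induced by hypoxia in many cells, was read at 1.11, 0.813 and 0.559 CPM in KO and 0.734, 0.914 and 0.954 CPM in WT. These values overlapped (-0.07 ± 0.33, adjusted p = 0.919), and the 95% interval of -0.80 to 0.67 leaves little precision at this level.

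Of 8 other hypoxia targets, 1 rose, 1 fell and 6 were not called, and the 12.5% in each direction is near the 11.2% and 11.7% of all genes. Car12, a membrane carbonic anhydrase that helps to export acid, stood at 4.04, 3.52 and 4.86 CPM in KO and 1.36, 2.35 and 1.74 CPM in WT. The groups did not overlap, and the 2.28-fold difference was the largest of the 16 called genes (log2 1.19 ± 0.23, adjusted p = 0.00330), at a low level of 0.518 FPKM in KO. Car9, its relative and a classic hypoxia marker, stood at 4.67, 4.40 and 5.55 CPM in KO and 4.22, 2.59 and 4.22 CPM in WT. Its difference of 0.41 ± 0.20 did not pass (adjusted p = 0.190). Mxi1, a MAX partner that opposes MYC, stood at 19.3, 18.0 and 21.6 CPM in KO and 24.97, 22.1 and 23.5 CPM in WT and fell (-0.26 ± 0.08, adjusted p = 0.0384). All 3 KO values of Mxi1 were lower, but the call was lost without KO 1, KO 2, WT 1 or WT 3 (adjusted p from 0.0959 to 0.135), without scaling factors (adjusted p = 0.0761), without a count filter (adjusted p = 0.0915) and in limma on FPKM (adjusted p = 0.0995 at the pseudocount of 0.1).

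The remaining hypoxia targets did not pass the test. Bnip3, a mitophagy receptor, differed by -0.13 ± 0.08, and Higd1a, a mitochondrial protein, by -0.17 ± 0.08 (adjusted p = 0.325 and 0.144). Adm, the vasoactive peptide adrenomedullin, and Ndrg1, a stress-response gene, differed by -0.04 ± 0.06 and 0.09 ± 0.05 (adjusted p = 0.674 and 0.243). Ankrd37, a small ankyrin repeat protein, was read at no more than 0.209 CPM in any library and at 0 in KO 2. Its estimate of -0.52 ± 1.03 carries no direction.

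The mixture of isozyme transcripts differed between groups for several steps. Among the hexokinases, Hk1 made up 71.5% ± 1.61 of summed FPKM in KO and 78.8% ± 1.15 in WT, Hk2 12.1% ± 0.38 and 12.6% ± 0.50, and Hk3 16.4% ± 1.57 and 8.62% ± 0.84 (SD, n = 3). Hk3, a hexokinase known from blood cells, rose as the summed macrophage markers did (15 of 17 called higher), and it stood at 12.2 CPM in KO and 5.23 CPM in WT (log2 1.22 ± 0.11, adjusted p = 1.54e-05). Eno1 took 94.7% of enolase in KO and 91.2% in WT, and the muscle enolase Eno3 took 2.63% and 6.31%. Summed skeletal muscle markers were at 6.39 to 8.05 CPM in KO and 9.43 to 10.8 CPM in WT, with 2 of 6 tested called lower. Links of Hk3 and Eno3 to these markers were not tested. Among the pyruvate dehydrogenase kinases Pdk3 took 62.8% and 60.1%, Pdk2 21.1% and 24.1%, Pdk1 6.38% and 8.68%, and Pdk4 9.70% and 7.11%. For these genes other than Hk2 the shares did not overlap between groups, but the smallest exact permutation p of 3 against 3 is 0.1. Shares within a family depend on each other, and in CPM the groups did not overlap for 38.2% of all genes tested. The shares of Eno2, the HIF alpha gene Hif3a, the Pfkfb genes, phosphofructokinases, aldolases, lactate dehydrogenases and prolyl hydroxylases overlapped between groups. Aldoa stood at 99.3% of aldolase, and Ldha at 85.7% and 85.1% of lactate dehydrogenase.

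**Figure D4:**
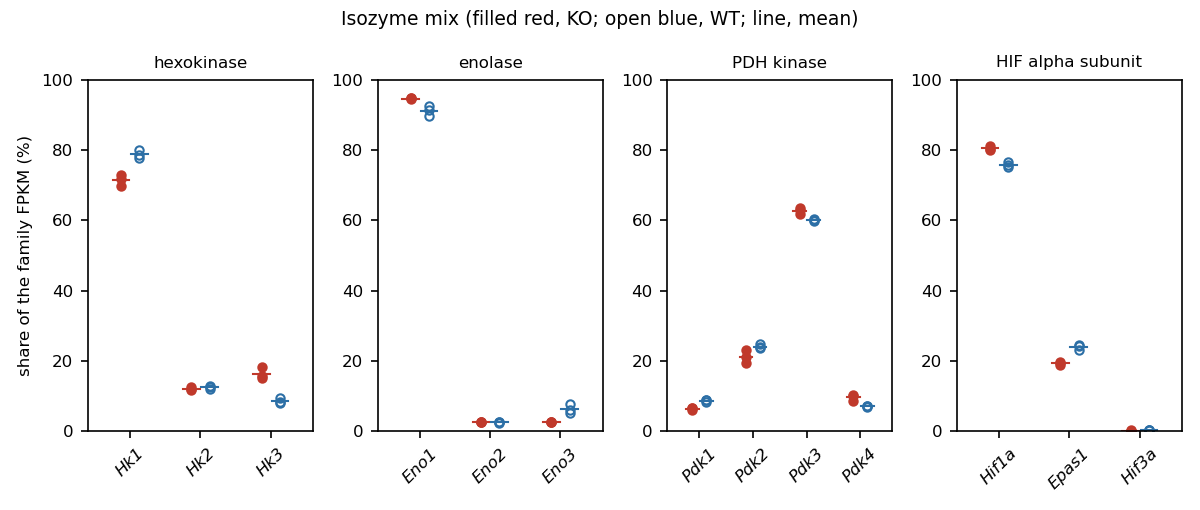
Share of each isozyme in the summed FPKM of its family, in percent, for hexokinases, enolases, pyruvate dehydrogenase (PDH) kinases and HIF alpha subunits, with 1 point a library and a line at the mean of each group. Hk3 lies higher in KO and Hk1 and Eno3 lower, and Hif1a stands at 80.6% in KO and 75.8% in WT.

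Genes next to the chain changed both ways. Of 35 tested other genes of glycolysis and pyruvate use, 6 rose and 7 fell (17.1% and 20%, against 11.2% and 11.7% of all genes), with a median of -0.03, and 3 rose when KO 1 or WT 3 was left out. Pcx, the pyruvate carboxylase, rose by 0.35 ± 0.04 (adjusted p = 1.64e-04), and Pdk4, the kinase known to respond to fasting, rose by 0.51 ± 0.09 (adjusted p = 0.00213). Eno3 changed by -1.20 ± 0.14 (adjusted p = 1.57e-04), and Mpc1, a subunit of the mitochondrial pyruvate carrier, by -0.35 ± 0.08 (adjusted p = 0.00753). Pck1, the cytosolic enzyme of gluconeogenesis that is also high in fat cells, was not counted in any KO library and had 16, 24 and 34 counts in the WT libraries. In the pentose phosphate pathway, which branches off glucose 6-phosphate, 3 of 8 genes rose and none fell, also at an unadjusted p under 0.05 or in DESeq2 or limma. The 3 were Pgd by 0.26 ± 0.03, Pgls by 0.17 ± 0.04 and Tkt by 0.09 ± 0.03 (adjusted p = 9.77e-05, 0.00844 and 0.0455).

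Other parts of the oxygen-sensing machinery were also mixed. Of 12 genes 2 rose and 4 fell (16.7% and 33.3%, against 11.2% and 11.7% of all genes), with a median of -0.08. Without scaling factors, without a count filter and in limma on FPKM, 1 fell. Leaving out any 1 of the 6 libraries left 1 that rose and 1 to 3 that fell, with 1 that fell without KO 1 and 3 without KO 2. Vhl, which encodes the ligase subunit that recognises hydroxylated HIF alpha, stood at 34.3, 34.4 and 36.3 CPM in KO and 48.7, 45.5 and 44.7 CPM in WT (log2 -0.40 ± 0.05, adjusted p = 2.73e-04). Cited2, which competes with HIF alpha for the coactivators p300 and CBP, stood at 83.1, 80.6 and 90.2 CPM in KO and 54.3, 54.6 and 53.9 CPM in WT (0.64 ± 0.05, adjusted p = 3.96e-06). The genes of those coactivators, Ep300 and Crebbp, were also called lower (log2 -0.14 ± 0.04 and -0.16 ± 0.05, adjusted p = 0.0245 and 0.0343). In the fits above where 1 gene fell, at most 1 of these 2 calls was kept. Groups did not overlap for Vhl or Cited2.

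A wider list of hypoxia response genes did not move one way. Of 36 tested, 9 rose and 14 fell (25% and 38.9%, against 11.2% and 11.7% of all genes), with a median of -0.10. Among those that rose were Ddit4, an inhibitor of mTORC1 (0.55 ± 0.06), the transcription factor Bhlhe40 (0.41 ± 0.05), Ero1a, an oxidase of the endoplasmic reticulum (0.39 ± 0.06), Loxl2, a collagen cross-linking enzyme (0.31 ± 0.03), and the heme oxygenase Hmox1 (0.31 ± 0.03). Adjusted p ranged from 4.78e-05 for Ddit4 to 7.20e-04 for Ero1a. Among those that fell were Angptl4, an inhibitor of lipoprotein lipase (-1.27 ± 0.07), the mitochondrial adenylate kinase Ak4 (-0.79 ± 0.14), Zfp395 (-0.49 ± 0.06), Narf (-0.46 ± 0.06), the histone demethylase Kdm3a (-0.38 ± 0.06) and the lysyl hydroxylase Plod1 (-0.28 ± 0.04). Their adjusted p ranged from 6.41e-07 for Angptl4 to 0.00255 for Ak4. Angptl4, which fat cells also make, stood at 13.5, 12.9 and 11.5 CPM in KO and 30.7, 30.1 and 30.7 CPM in WT, while adipocyte markers were lower as well.

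**Figure D5:**
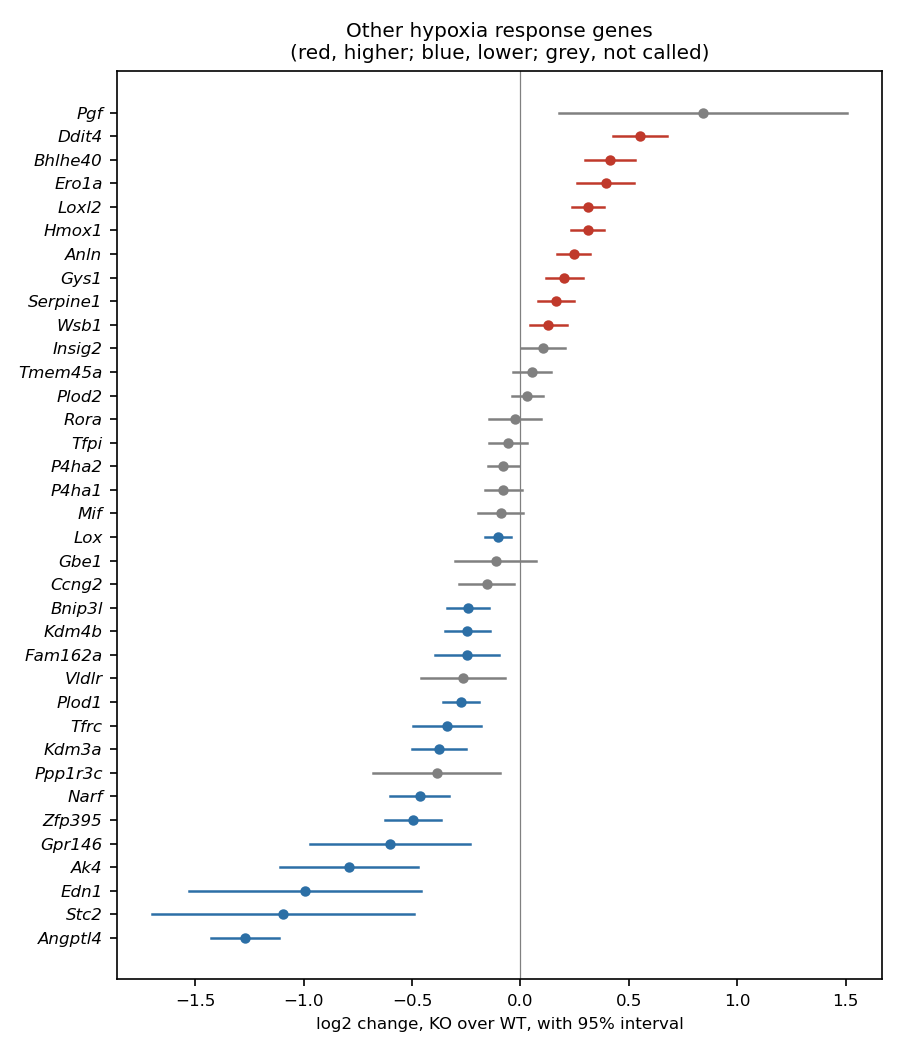
Log2 difference of KO over WT for the 36 tested genes of the wider hypoxia list, with lines for the 95% interval of each gene (red, called higher, and blue, called lower). Called genes lie on both sides of 0, from Angptl4 at -1.27 to Ddit4 at 0.55.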

How the data were processed

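Polyadenylated RNA of 6 libraries was sequenced, 3 NDR1 KO and 3 WT, grouped by the genotype in the labels. Per the submitters' processing notes, cutadapt 1.9, HISAT2 2.0.4 and StringTie 1.3.4d were used. These notes list a human build although the identifiers are those of mouse genes, and the counting method, use of strand and mouse build are not given in the sources used here. Whole-number counts per gene were deposited, per the file headers, beside FPKM values computed by the authors.

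The test was edgeR 4.0.16 in R 4.3.3, quasi-likelihood on counts with TMM factors and filterByExpr, and p-values were adjusted by Benjamini-Hochberg over all 18221 genes tested. The script was tested on simulated data. The ± after a log2 value is its standard error, and the ± after a level or share is the SD over 3 libraries. Isozyme shares, FPKM ratios and sums came from deposited FPKM. Library totals were 61461870 to 76159034 counts, replicates of a group varied at the median 5.73 to 6.69 times as much as counting noise gives, and the biological coefficient of variation was 12.6%.

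Alternatives were other or no scaling factors, no filter, robust dispersion, a replicate block, leaving out each library, DESeq2 1.42.0, and limma 3.58.1 on log2(FPKM + 1) or log2(FPKM + 0.1) at a mean FPKM of at least 1. The genes, the further lists and the naming rule were chosen with earlier results of these data known. By that rule Gapdh, Hif1a, Epas1, Arnt, Slc2a1, Hk2, Ldha, Pdk1, Egln3 and the other called genes have values in every library, and the rest of the 37 are given by means, differences or ranges. Slc16a1, Slc16a3 and Car9 are outside the rule and were given in every library after their values were seen. Further lists name called genes of lowest p. Where a symbol had several rows, that of most counts was used. Deposited intervals of all 37 genes lay on the chromosomes of GENCODE M21, but 1 had the same start and end, so the build is not settled.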

Additional observations from a re-analysis of the deposited data

How the results depend on the processing

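Of the 16 called genes 6 were called under every alternative that tested them, and all 16 kept their sign. Leaving out 1 library gave 5 to 9 genes higher of the 37, and 3 to 6 of the other glycolysis and pyruvate genes higher. It gave 1 other oxygen-sensing gene higher in each case and 1 to 3 lower. Over all genes 8.47% to 9.21% were called higher in these fits, against 11.2% in the main fit. Why the calls changed was not tested. Limma on FPKM tested 12106 genes, against 18221 in the main fit. At pseudocounts of 1 and 0.1 it called 1267 and 1254 of them lower (10.5% and 10.4%, against 11.7% in the main fit). Called lower were 4 and 4 of the other glycolysis and pyruvate genes, 1 and 1 of the other oxygen-sensing genes, and 9 and 9 of the wider hypoxia list. The other oxygen-sensing genes called lower were also 1 without scaling factors and 1 without a count filter. The cause was not tested. Without scaling factors 63.0% of all calls were higher in KO, and in limma 64.4% and 64.5%, against 49.0% with TMM.

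Replicate numbers did not pair the libraries: deviations of libraries with the same number correlated at -0.05, -0.01 and 0.01, and the libraries did not each correlate best with their own number. With a replicate block 10 genes of the 37 were higher and 3 lower (against 10.5% and 10.8% of all genes), 1 other oxygen-sensing gene was higher, and 1912 genes were higher and 1976 lower over all genes. The block ended the calls of Hk2, Pdk3 and Hif1a (adjusted p = 0.0597, 0.0644 and 0.0574). Low counts limit precision for Egln3 and Ankrd37, and the excess in KO 2 widens the error of Gapdh. No result changed sign under any alternative among the 16 called genes.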
